A study of Mus musculus with 12 samples.

Results

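In this comparison 6 hearts of mice given dantrolene were set against 6 hearts of mice without the drug, with the kind of surgery as a covariate, so that all 12 libraries of the study entered the comparison. The groups were TAC dantrolene, TAC control, sham dantrolene and sham control, with 3 mice in each, and the drug response sought is the one that the TAC and the sham mice share. All were male C57BL/6 mice with no genetic change stated, whose surgery took place at an age of 8 weeks and whose hearts were taken at 12 weeks. Transverse aortic constriction (TAC) is a surgical narrowing of the aorta that puts the left ventricle under pressure, and the sham mice had surgery without it. Oral dantrolene was dosed at 30 mg/kg daily over 4 weeks, and RNA of the left ventricle was sequenced, 1 library per mouse.

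Each heartbeat opens L-type calcium channels in the membrane of the muscle cell, and the calcium that enters opens ryanodine receptors, which release more from the sarcoplasmic reticulum. Calcium is then pumped back into this store by the SERCA ATPase and carried out of the cell by the sodium-calcium exchanger. Dantrolene binds ryanodine receptors and limits this release, and it is used as a drug against malignant hyperthermia of skeletal muscle. The study's title names RyR2, the ryanodine receptor of heart muscle, together with TNF, NF-kappaB and NLRP3, which belong to inflammatory signalling.

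The libraries held 25766378 to 38363106 counted reads, and 14965 of 25319 genes had enough of them to be tested. Genes of ventricular muscle were abundant, with Myl2 (ventricular myosin light chain) at 7669 to 22618 CPM (counts scaled to a common library size) and Tnni3 (cardiac troponin I) at 6790.0 to 14125 CPM, while atrial Myl7 lay at 0 to 1.9 CPM and Sln at 0 to 1.5 CPM. A principal component analysis put 41.7% of the variance on a first axis that did not separate the drug groups. TAC dantrolene 1 (score -76.5), sham dantrolene 3 (-77.9), TAC control 1 (-85.6) and sham control 3 (-34.7) lay apart from the other 8 libraries, whose scores were 22.7 to 50.7. The same 4 libraries had the highest summed levels of 39 ribosomal protein genes, 75621 and 47838 CPM in these dantrolene mice and 71281 and 34676 CPM in these control mice, against 15774 to 28881 CPM in the other 8. The share of mitochondrially encoded genes was lowest in TAC dantrolene 2, with 1.71% of reads, and highest in TAC control 3, with 22.4%. In bulk tissue, fewer cells of a type and less RNA per cell cannot be told apart.

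**Figure D1:**
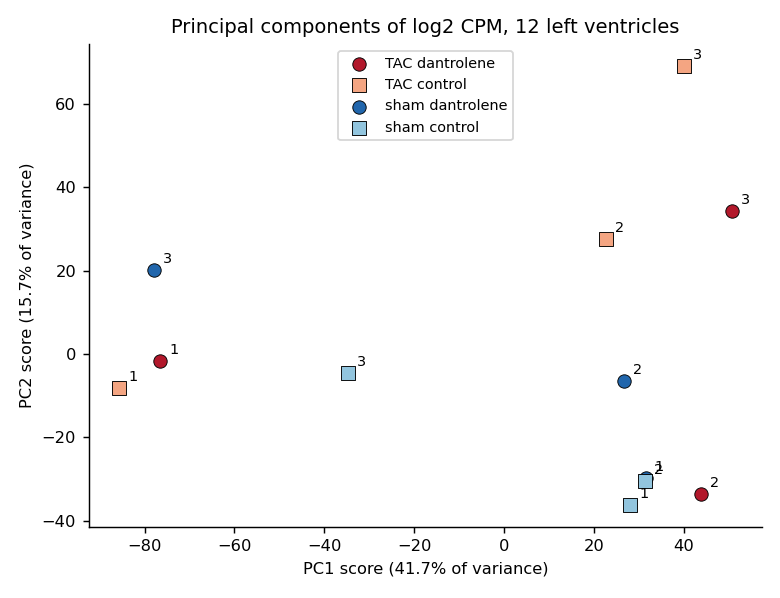
Scores of the 12 libraries on the first and second principal components of log2 CPM, coloured by group, each point labelled with its mouse number. The first axis (41.7% of the variance) sets 2 dantrolene and 2 control libraries apart from the other 8, and the second axis holds 15.7%.

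No gene passed the test for the drug across both kinds of surgery. In edgeR's quasi-likelihood test, 0 of 14965 genes (0%) had a Benjamini-Hochberg adjusted p under 0.05, and DESeq2 on the same counts called 0 as well. Unadjusted, 121 genes (0.809% of those tested) had p below 0.05, where 748 are expected of p-values spread evenly. Of the 121, 62 (0.414%) were higher and 59 (0.394%) lower in dantrolene hearts. DESeq2 gave 180 such genes. The smallest unadjusted p was 0.00719, for the transferrin receptor gene Tfrc. Fold changes leaned a little to the positive side, with 8462 genes (56.5%) above 0 and a median log2 fold change of 0.03.

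The spread between mice of a group set what this comparison could resolve. The common biological coefficient of variation was 0.438. For 5499 genes at 10 to 100 CPM the 95% interval of the log2 fold change reached a median of 0.516 to either side, and for 2476 genes under 1 CPM it reached 1.13. Drug treatment accounted for 4.72% of the total sum of squares of log2 CPM over all genes, surgery for 9.09% and their interaction for 7.02%, with 1 degree of freedom each. Mice within groups held 79.2% on 8 degrees of freedom, or 9.9% for each. These shares and intervals do not use the shared numbers of the mice. With the 6 same-numbered pairs as blocks, 0 genes were called and 387 had an unadjusted p under 0.05 in edgeR.

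The drug effects of the TAC mice and of the sham mice, which share no libraries, ran against each other more often than together. Of 14965 genes, 5788 (38.7%) had a difference of the same sign in both arms. Of the ribosomal protein genes, all 39 were lower in dantrolene mice under TAC and 37 of 39 were higher in dantrolene mice after sham surgery. Across genes, which are not independent replicates, the TAC and the sham differences in mean log2 CPM had Pearson's r = -0.201 and Spearman's rho = -0.257. Without the 4 libraries apart on the first axis, r was -0.08 and 46.3% of genes had the same sign. Without sham dantrolene 3 alone, r was -0.03 and 50.2% had the same sign, and across all single omissions r lay between -0.256 and -0.03. Within the arms 0 genes were called as well (edgeR, fit of 4 group means, adjusted p under 0.05). In that fit 486 genes had an unadjusted p under 0.05 in TAC and 107 in sham. With each arm fitted alone in edgeR the order turned, with 187 such genes in TAC, 287 in sham and 0 called in either. The test of the difference between the arms called 0 genes and had 422 at an unadjusted p under 0.05. DESeq2 was not run within the arms or on their difference.

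**Figure D2:**
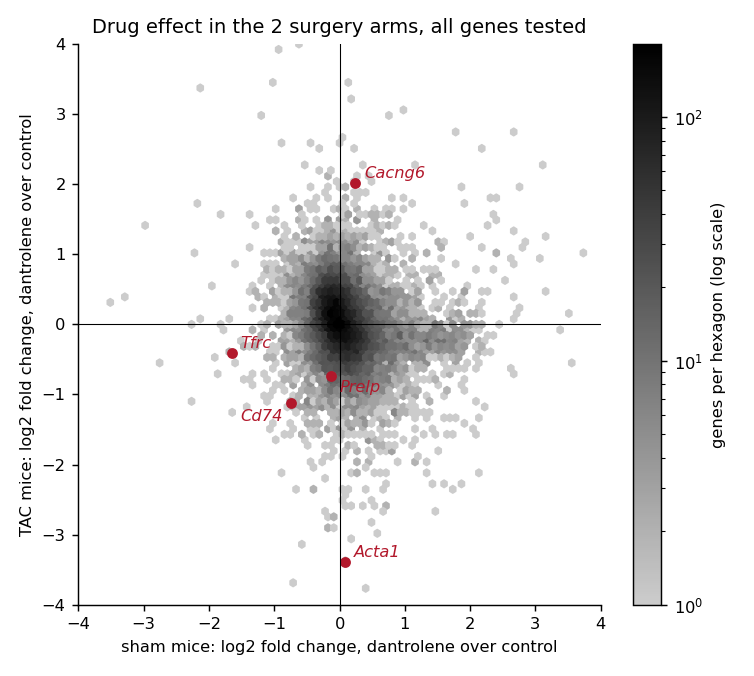
Log2 fold change of dantrolene over control in sham mice (horizontal) and in TAC mice (vertical) for the genes tested, with shade for the number of genes per hexagon on a log scale and 5 genes marked. The axes end at 4, and 7 genes lie outside them. A response shared by both arms would lie along the rising diagonal, and the cloud does not follow it.

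Few genes kept the drug groups apart in both arms. In 15 genes (0.1% of those tested) all 3 dantrolene mice lay on the same side of all 3 control mice both under TAC and after sham surgery, 4 of them higher (0.0267%) and 11 lower (0.0735%) in dantrolene hearts. Within TAC alone 712 genes (4.76%) were so separated in either direction, and within sham alone 1103 (7.37%). None of the 15 was called. Cacng6, Aldh1a3, Gm29236, Gm12359, Prelp and Myoc were named by a rule that takes the smallest p among the 15. The others are named here after their values were seen. All 15 were thus chosen by their separation in these data. Cryab encodes alpha B-crystallin, a small heat shock protein that chaperones desmin in heart muscle (chr9:50751325-50756636, + strand, GRCm38). Cryab had 2288, 1821 and 1885 CPM in TAC dantrolene mice 1 to 3, against 2597, 3602 and 3045 CPM in TAC control mice 1 to 3. After sham surgery it had 2252, 2173 and 2181 CPM in sham dantrolene mice 1 to 3, against 2606, 2419 and 2392 CPM in sham control mice 1 to 3. Every dantrolene mouse lay below every control mouse of either arm, with means of 2100.0 ± 197 CPM in dantrolene hearts and 2777 ± 467 CPM in control hearts (SD, n = 6 each). The log2 fold change was -0.40 ± 0.20 (SE, unadjusted p = 0.072 in edgeR's quasi-likelihood test), -0.62 under TAC and -0.17 after sham surgery. Such a separation of 6 from 6 mice was found in 5 genes (0.0334%), 1 higher (0.00668%) and 4 lower (0.0267%).

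The other 4 were Pqbp1, Nat6, Gm29236 and, the only higher one, Gm16567. Pqbp1, which encodes a protein that binds splicing factors, ranged from 17.4 to 23.9 CPM with a median of 21.7 in the dantrolene mice, against 24.5 to 28.1 CPM with a median of 25.5 in the control mice. Nat6 encodes the acetyltransferase of the actin N terminus and ranged from 11.6 to 13.8 CPM with a median of 12.5 in the dantrolene mice, against 14.0 to 17.0 CPM with a median of 14.9 in the control mice. Both differences were small, with log2 fold changes of -0.29 ± 0.14 and -0.28 ± 0.15 (SE). The noncoding genes Gm29236 (-1.02 ± 0.36) and Gm16567 (0.83 ± 0.39) lay below 1 CPM in every library, where few reads stand behind each value.

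Prelp encodes a small leucine-rich proteoglycan that anchors basement membranes to connective tissue (chr1:133910304-133921414, - strand). It had 59.0, 49.2 and 41.2 CPM in TAC dantrolene mice 1 to 3, against 68.3, 96.5 and 83.0 CPM in TAC control mice 1 to 3. The sham values were 53.6, 52.5 and 50.4 CPM in sham dantrolene mice 1 to 3, against 58.6, 56.4 and 57.2 CPM in sham control mice 1 to 3. The groups did not overlap within either arm, but the gap was wide under TAC (log2 fold change -0.73) and narrow after sham surgery (-0.14), with -0.43 ± 0.17 over both (SE, unadjusted p = 0.0264). Myoc, the gene of the secreted glycoprotein myocilin, differed by about the same amount in both, -0.41 under TAC and -0.42 after sham surgery. Aldh1a3, which makes retinoic acid from retinaldehyde, had 0.364, 0.673 and 0.720 CPM in TAC dantrolene mice 1 to 3, against 1.15, 1.41 and 1.23 CPM in TAC control mice 1 to 3. The sham values were 0.587, 0.498 and 0.537 CPM in sham dantrolene mice 1 to 3, against 0.846, 0.700 and 1.02 CPM in sham control mice 1 to 3. Its log2 fold change was -0.88 ± 0.28 (SE) at a low level. The remaining lower genes were Capzb (the beta subunit of the actin capping protein, -0.21), Snrpa (a protein of the U1 splicing particle, -0.35), Gnb3 (a G protein beta subunit, -0.47) and Mfsd10 (a membrane transporter, -0.46). Higher beside Cacng6 and Gm16567 were Inafm2 (0.25) and the noncoding Gm12359 (0.66).

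**Figure D3:**
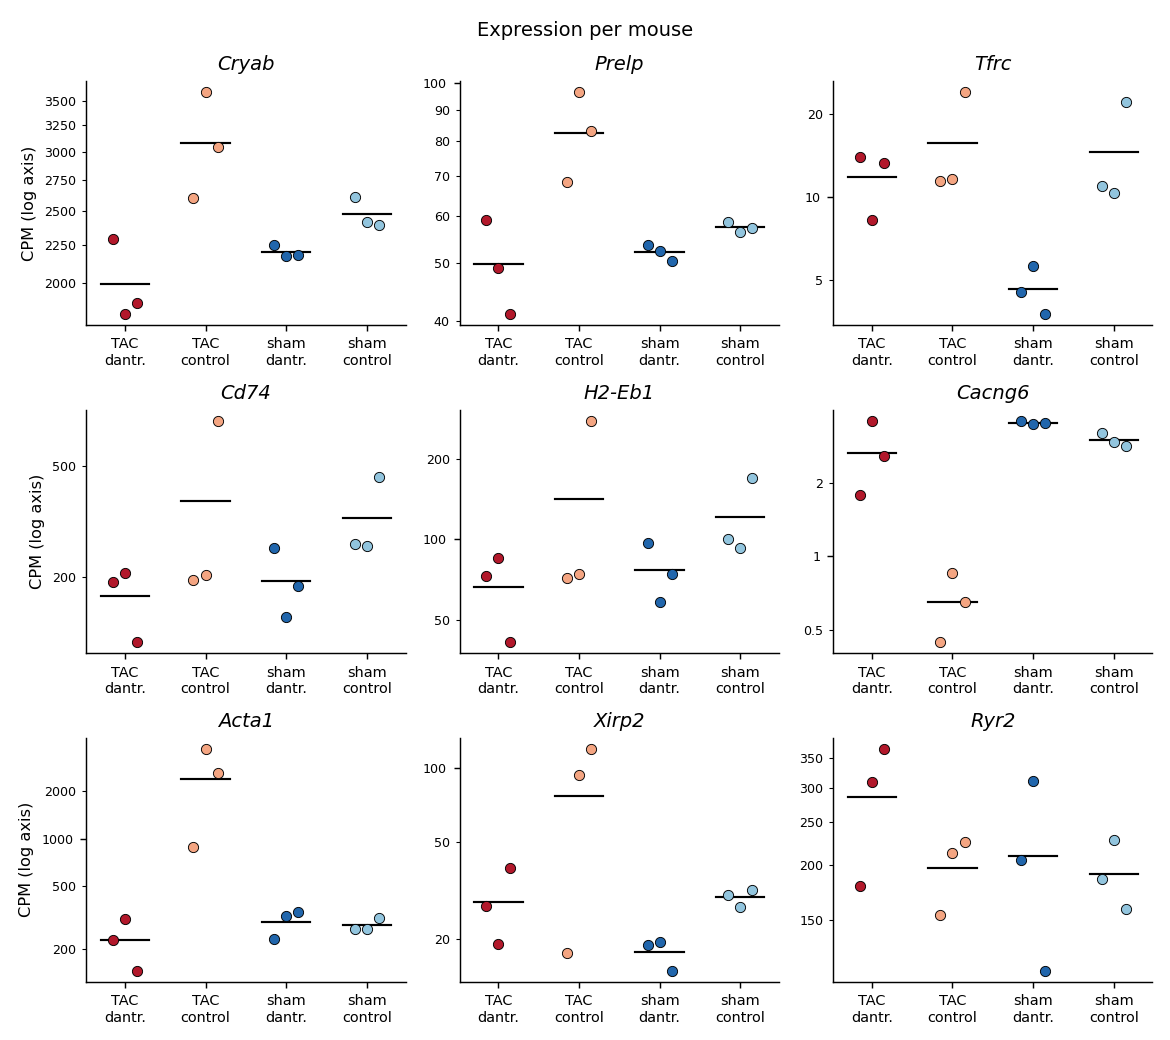
CPM on a log axis of 9 genes in each mouse, with a bar at the group mean. Cryab and Prelp separate dantrolene from control mice in both arms, Cd74 and H2-Eb1 are high in the control mice numbered 3, and Acta1 differs under TAC, where it had 229.8, 312 and 146 CPM in dantrolene mice and 887, 3708 and 2614 CPM in control mice.

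Among protein-coding genes of at least 1 CPM, those of smallest p on the lower side included Tfrc, Xirp2, Hlx, Cd74, Bgn, H2-DMa, H2-Eb1, Larp4b, Acta1, Serpinf1 and Prelp. Their smallest adjusted p was 1 in edgeR, and 9 of these 11 had the larger fold change under TAC. Tfrc, which takes up transferrin-bound iron (chr16:32608920-32632794, + strand), had 14.0, 8.25 and 13.3 CPM in TAC dantrolene mice 1 to 3, against 11.5, 11.6 and 24.1 CPM in TAC control mice 1 to 3. In the sham arm it had 4.51, 5.60 and 3.76 CPM in sham dantrolene mice 1 to 3, against 11.0, 10.4 and 22.3 CPM in sham control mice 1 to 3. The sham groups lay apart and the TAC groups overlapped, with a log2 fold change of -1.03 ± 0.33 (SE) over both, -0.41 under TAC and -1.65 after sham surgery (p for the difference between arms = 0.0474, unadjusted). The control mouse numbered 3 was the highest of its group in both arms, and without these 2 mice the log2 fold change was -0.62. Immature red cells also express Tfrc. Of the erythroid list 7 of 9 tested genes were lower over both arms, 9 of 9 after sham surgery (median -0.26) and 5 of 9 under TAC (median -0.12), with sums of 976 to 11769.8 CPM in dantrolene hearts and 1046 to 9003 CPM in control hearts. The part of such cells in the Tfrc result was not tested.

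Larp4b, an RNA-binding protein gene, was lower in each of the 6 pairs of dantrolene and control mice that share a surgery and a number, a pattern found in 163 genes (1.09%); 323 genes (2.16%) had all 6 pairs in either direction. It ranged from 7.76 to 17.1 CPM with a median of 9.74 in the dantrolene mice, against 12.0 to 21.01 CPM with a median of 14.1 in the control mice. The groups of Larp4b overlapped under TAC and with the arms put together, but not after sham surgery. Its log2 fold change was -0.37 under TAC and -0.64 after sham surgery. Hlx, a homeobox factor, was also lower in 6 of 6 pairs, with -1.16 and -0.22 in the same order. The other genes below had larger fold changes under TAC. Acta1, the skeletal alpha-actin that hearts express before birth and under load, had 232, 324 and 343 CPM in sham dantrolene mice 1 to 3, against 268, 267 and 314 CPM in sham control mice 1 to 3. Its log2 fold change was -3.39 under TAC and 0.08 after sham surgery. In edgeR's quasi-likelihood test of the difference between the arms, Acta1 had the smallest unadjusted p of all genes, 0.000185, which adjusted over all genes was 1. Bgn, the matrix proteoglycan biglycan, had -1.19 and -0.20 in the same order. Serpinf1, the gene of pigment epithelium-derived factor, had -0.96 under TAC and -0.30 after sham surgery. Xirp2, an actin-binding protein of the intercalated disc, had 27.2, 19.0 and 39.1 CPM in TAC dantrolene mice 1 to 3, against 17.5, 93.5 and 119.8 CPM in TAC control mice 1 to 3. After sham surgery the values were 18.9, 19.4 and 14.8 CPM in sham dantrolene mice 1 to 3, against 30.3, 27.0 and 31.7 CPM in sham control mice 1 to 3. TAC control mice 2 and 3 stood high, while TAC control 1 lay below all 3 dantrolene mice of its arm, and the sham groups did not overlap.

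Genes of MHC class II, which present peptides from antigen-presenting cells to CD4+ T cells, were lower on average in both arms. All 9 tested members of the list had a negative fold change, 5 of them at an unadjusted p under 0.05 (against 0.394% of all genes tested) and 0 called. The median log2 fold change was -0.81 over both arms, -1.09 under TAC and -0.47 after sham surgery, against 0.03, 0.02 and 0.02 over all genes tested. The class II genes share promoter elements, and the stretches from 100 to 21 bases before the RefSeq start (GRCm38.p6) are shown for 3 members with the Y box in capitals, ATTGG read 5′ to 3′ on the gene's own strand. H2-Aa and H2-DMb1 were picked for this after their values were seen.
H2-Eb1 (chr17:34305767-34305846, + strand, capitals from base -59): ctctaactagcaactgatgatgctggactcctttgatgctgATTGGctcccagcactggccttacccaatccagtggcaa
H2-Aa (chr17:34287844-34287923, - strand, capitals from base -48): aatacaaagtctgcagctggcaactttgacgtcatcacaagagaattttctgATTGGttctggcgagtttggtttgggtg
H2-DMb1 (chr17:34153091-34153170, + strand, capitals from base -61): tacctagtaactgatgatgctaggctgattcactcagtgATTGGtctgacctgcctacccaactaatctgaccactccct

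The set of promoters used here, from 250 bases before to 50 after a RefSeq start, held 7 of 10 class II genes in 8 windows. Of the 8 windows 7 held ATTGG as written. Not all of these matches lay near the positions shown above. The match of H2-Eb2 began at base -100 and that of H2-DMa at base -198, and the other window of H2-DMa held none. Over 32851 promoters of this length 22.1% held ATTGG as written and 37.4% on either strand, where it reads CCAAT on the other. The stretch of H2-Eb1 also holds that other reading downstream of the capitals. Promoters of H2-Ab1, Cd74 and Ciita were not used here. A match of letters is a description and shows no binding.

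H2-Eb1, a beta chain of class II, had 73.1, 84.9 and 41.1 CPM in TAC dantrolene mice 1 to 3, against 71.6, 74.2 and 279 CPM in TAC control mice 1 to 3. In the sham arm the values were 97.3, 58.0 and 74.1 CPM in sham dantrolene mice 1 to 3, against 100.4, 93.0 and 169.7 CPM in sham control mice 1 to 3. In each arm the control mouse numbered 3 was far above the other 2 controls, which overlapped with the dantrolene mice. Cd74, the invariant chain that class II molecules need for assembly, had 191, 206 and 116 CPM in TAC dantrolene mice 1 to 3, against 195, 202 and 725 CPM in TAC control mice 1 to 3. After sham surgery Cd74 had 252, 143 and 186 CPM in sham dantrolene mice 1 to 3, against 262, 257 and 453 CPM in sham control mice 1 to 3. The sham groups of Cd74 did not overlap and the TAC groups did. The log2 fold changes were -0.94 ± 0.34 for Cd74, -0.88 ± 0.35 for H2-Eb1, -0.88 ± 0.36 for H2-Ab1, -0.86 ± 0.38 for H2-Aa and -0.81 ± 0.31 for H2-DMa, which loads peptides (SE). Without both control mice numbered 3 the median of the list was -0.25, Cd74 had -0.33 and H2-Eb1 had -0.25, and without TAC control 3 alone the median was -0.43. The summed level of 25 macrophage markers ranged from 635 to 2280.2 CPM in dantrolene hearts and from 762 to 1973 CPM in control hearts. Over both arms 16 of 25 were lower, and no marker was at 0 throughout. Under TAC 17 of 25 were lower (median -0.25), but after sham surgery 20 of 25 were higher (median 0.23). For 9 tested B cell markers of 12, 6 were lower over both arms. Under TAC 8 of these 9 were lower (median -0.25), and after sham surgery 7 were higher (median 0.24). Sums over the 9 tested were 12.6 to 45.0 CPM in dantrolene hearts and 18.7 to 42.4 CPM in control hearts. No marker of the 12 was at 0 throughout. TAC control 3 had a macrophage sum of 1478 CPM, inside the range of the other libraries. Its mean log2 CPM of the macrophage list, 4.101, was the highest of all 12 libraries, with sham dantrolene 3 next at 4.097. For the class II list the mean log2 CPM was 4.789 in TAC control 3 and 3.683 in sham dantrolene 3. Sham control 3 was the highest sham control on both macrophage measures, with 1463 CPM and 3.73. The part of these cells in the class II result was not tested.

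Protein-coding genes of smallest p on the higher side included Cacng6, Mrgprh, Cacna1s, Pirt, Clec18a, Maml3, Armc2, Tmem164, 8430408G22Rik, Herc3 and Slc8a1, again with a smallest adjusted p of 1 in edgeR. Of these 11 genes, 10 had the larger fold change under TAC, and 6 kept the TAC groups apart against 1 in sham. Cacng6, the gamma-6 subunit of voltage-gated calcium channels (chr7:3424195-3435667, + strand), had 1.78, 3.60 and 2.57 CPM in TAC dantrolene mice 1 to 3, against 0.444, 0.852 and 0.647 CPM in TAC control mice 1 to 3. The sham values were 3.58, 3.48 and 3.51 CPM in sham dantrolene mice 1 to 3, against 3.19, 2.93 and 2.83 CPM in sham control mice 1 to 3. Both arms separated, at a low level of 10 to 171 reads per library, with a log2 fold change of 1.10 ± 0.36 (SE, unadjusted p = 0.00842), 2.02 under TAC and 0.24 after sham surgery (unadjusted p for the difference = 0.00446). Cacna1s, the pore subunit of the L-type channel of skeletal muscle, had 8.71, 12.7 and 12.7 CPM in TAC dantrolene mice 1 to 3, against 6.71, 7.40 and 7.02 CPM in TAC control mice 1 to 3. After sham surgery Cacna1s had 14.3, 17.9 and 15.3 CPM in sham dantrolene mice 1 to 3, against 12.8, 14.5 and 13.3 CPM in sham control mice 1 to 3. It was higher in 6 of 6 same-numbered pairs (160 genes, 1.07%, were), with a log2 fold change of 0.46 ± 0.18 (SE).

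Slc8a1, the sodium-calcium exchanger NCX1, had 7.13, 30.6 and 25.5 CPM in TAC dantrolene mice 1 to 3, against 7.02, 8.60 and 11.1 CPM in TAC control mice 1 to 3. In the sham arm it had 13.7, 21.2 and 7.81 CPM in sham dantrolene mice 1 to 3, against 9.03, 15.1 and 7.18 CPM in sham control mice 1 to 3. All 6 same-numbered pairs were higher with the drug although the groups overlapped, and the log2 fold change was 0.85 ± 0.36 (SE), with a 95% interval of 0.07 to 1.63. In the list of calcium reuptake and extrusion, 12 of 16 tested genes were higher (56.5% of all genes were), 3 of them at an unadjusted p under 0.05 (against 0.414% of all genes) and 0 called, with a median log2 fold change of 0.26, against 0.03 over all genes. Beside Slc8a1 these were Micu3, a regulator of the mitochondrial calcium uniporter (1.05 ± 0.38), and Atp2a1, the SERCA pump of fast skeletal muscle (1.01 ± 0.45), both below 1 CPM on average. Atp2a1 had 1.98 under TAC and 0.09 after sham surgery, and Micu3 had 1.10 and 0.99 in the same order. The median of this list was 0.23 under TAC and 0.09 after sham surgery, and 8 of 16 genes had the same sign in both arms. Skeletal muscle also expresses Cacna1s and Atp2a1. Of 14 skeletal muscle markers 7 were tested, 5 of them higher over both arms, and 7 had no read in at least 1 library. Of the 7 tested markers 4 were lower under TAC (median -0.11) and 4 were higher after sham surgery (median 0.05). Their sums, which include Ckm and Mb of heart muscle, were 21574 to 93204.5 CPM in dantrolene hearts and 24230.3 to 88959 CPM in control hearts, and the part of such cells was not tested. For voltage-gated calcium channels, 9 of 13 were higher and 0 called, with a median of 0.20, which was 0.35 under TAC and -0.03 after sham surgery.

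Maml3, a coactivator of Notch signalling, ranged from 0.810 to 2.23 CPM with a median of 1.76 in the dantrolene mice, against 0.488 to 1.43 CPM with a median of 0.983 in the control mice. It was higher in 6 of 6 same-numbered pairs although the groups overlapped, with a log2 fold change of 0.83 ± 0.34 (SE). Mrgprh, an orphan G protein-coupled receptor, had 1.56 under TAC and 0.15 after sham surgery. Pirt, which regulates TRP channels in sensory neurons, had its larger value after sham surgery, 1.21 against 0.47 under TAC. The others were Clec18a (1.02), 8430408G22Rik (0.79), Armc2 (0.62), Herc3 (0.50) and Tmem164 (0.45). Of noncoding genes, those of smallest p on the higher side were Gm14149 (1.19 ± 0.43), 4933431K23Rik (0.83 ± 0.31) and Gm12359 (0.66 ± 0.24, SE). On the lower side they were RP23-418O21.5 (-1.44 ± 0.49), Gm26880 (-0.85 ± 0.30) and Gm29236 (-1.02 ± 0.36). Few reads stand behind these values. Gm14149 averaged 0.25 CPM, RP23-418O21.5 0.33 CPM and Gm29236 0.32 CPM, and the others 1.30 to 1.93 CPM.

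**Figure D4:**
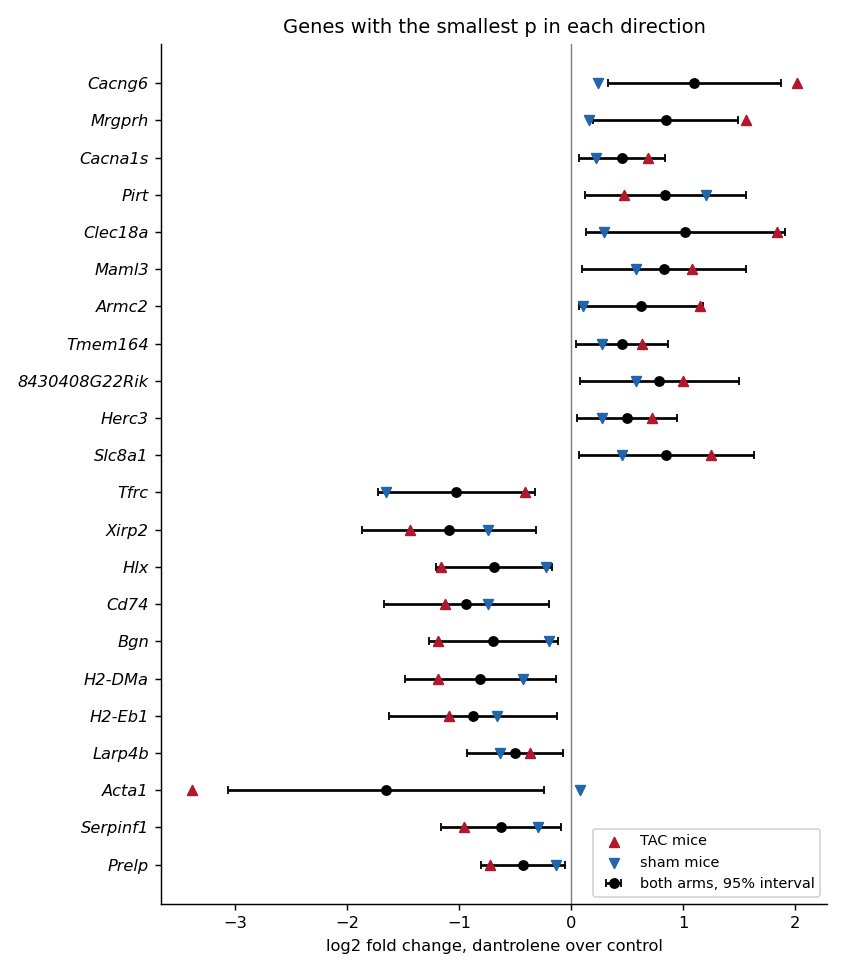
Log2 fold change of dantrolene over control for 11 protein-coding genes of smallest p in each direction, over both arms with its 95% interval (black), in TAC mice (red, pointing up) and in sham mice (blue, pointing down). None passed the adjusted threshold. Acta1 had -3.39 under TAC and 0.08 after sham surgery, and Tfrc had -0.41 and -1.65.

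The transcripts of the drug's targets did not pass the test either. On the FPKM scale, which divides fragments by gene length and library size, Ryr2 had a median of 14.4 FPKM in dantrolene hearts (4.98 to 20.92) and 10.6 FPKM in control hearts (5.61 to 13.63). Ryr1, the skeletal muscle form, had medians of 0.135 and 0.105 FPKM in the same order, and Ryr3 had 0.035 and 0.03 FPKM. Ryr2 counts were 179.6, 309 and 367 CPM in TAC dantrolene mice 1 to 3, against 154, 213 and 225 CPM in TAC control mice 1 to 3. The sham values were 205, 309.8 and 115 CPM in sham dantrolene mice 1 to 3, against 186, 229 and 159 CPM in sham control mice 1 to 3. The dantrolene mice spanned both the highest and the lowest Ryr2 values. The log2 fold change of Ryr2 was 0.33 ± 0.26 with a 95% interval of -0.23 to 0.90, which spans 0. Ryr1 had 0.68 ± 0.79, with 18.7 CPM in sham dantrolene 3 and at most 6.97 CPM in any control, and without that mouse its value was -0.39. Of 21 genes of the ryanodine receptor complex, 12 were higher and 9 lower, with 0 called, 0 at an unadjusted p under 0.05 and a median of 0.04.

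The inflammatory pathways named in the study's title had pooled medians near 0. In TNF and NF-kappaB signalling, 19 of 34 tested genes were higher and 15 lower, with a median log2 fold change of 0.04, and in the NLRP3 inflammasome 10 of 17 were higher with a median of 0.08. The NLRP3 median was -0.01 under TAC and 0.30 after sham surgery, where 13 of 17 were higher. In both lists 0 genes were called and 0 had an unadjusted p under 0.05. Tnf ranged from 0.313 to 2.44 CPM with a median of 0.991 in the dantrolene mice, against 0.189 to 2.59 CPM with a median of 0.808 in the control mice. Its log2 fold change was 0.10 ± 0.48 with a 95% interval of -0.93 to 1.13, and that of Il1b was 0.55 ± 0.66 with -0.87 to 1.97. Nlrp3, the sensor of the inflammasome, had 0.95 (-0.15 to 2.05), and Casp1, the protease it activates, had -0.59 (-1.77 to 0.59). Without TAC dantrolene 2 Nlrp3 had 0.47 and Casp1 -0.29, and without TAC control 3 Casp1 had -0.13. All 4 lay below 10 CPM in every library, and each of the 4 intervals spans 0.

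Neutrophil and mast cell markers had 9 of 10 tested members higher, with a median of 0.50, which was 0.16 under TAC and 1.00 after sham surgery. Their summed level was 13.3 to 110.7 CPM in dantrolene hearts and 14.95 to 34.9 CPM in control hearts, and the median was 0.16 without sham dantrolene 3 and 0.00 without the 4 libraries apart on the first axis. For T and NK cells 8 of 12 tested markers were lower with a median of -0.30, which was -0.50 under TAC and 0.09 after sham surgery. Smooth muscle and pericyte markers were split, 9 of 16 higher with a median of 0.04, and Myh11, the smooth muscle myosin, had 0.71 ± 0.30. Epicardial and mesothelial markers had 7 of 9 tested higher with a median of 0.66, which was 0.17 under TAC and 0.99 after sham surgery. Their sums overlapped, at 33.7 to 75.4 CPM in dantrolene hearts and 31.6 to 59.3 CPM in control hearts. In the sham arm the sums were 49.1, 45.3 and 33.7 CPM in dantrolene mice 1 to 3, against 45.9, 56.5 and 40.8 CPM in control mice 1 to 3. Of the 12 listed epicardial and mesothelial markers, 4 had no read in at least 1 library. No marker of any of these 4 lists was at 0 in every library, and 0 were called.

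In the list of hypertrophy and the fetal programme, 9 of 15 tested genes were lower (43.5% of all genes were), 4 of them at an unadjusted p under 0.05 (against 0.394% of all genes) and 0 called. The median was -0.25 over both arms and -0.24 under TAC, and after sham surgery 9 of 15 were higher with a median of 0.05. These 4 were Acta1, Xirp2, Nppa (-1.26), the atrial natriuretic peptide, and Ankrd1 (-0.98), a stress-responsive cofactor of the Z-disc. Nppa had -2.60 under TAC and 0.07 after sham surgery (unadjusted p for the difference = 0.00472). Nppb, the related peptide, had -0.31 under TAC and 0.99 after sham surgery, with 0.34 ± 0.47 over both. The adult myosin heavy chain Myh6 had 0.48 ± 0.45 and the fetal form Myh7 had -0.25 ± 0.53. Nppa is itself an atrial marker. Of 9 tested atrial and conduction markers 6 were lower, and the mean log2 CPM of the list overlapped, at 2.12 to 2.82 in dantrolene hearts and 2.08 to 2.91 in control hearts. Their part in the Nppa values was not tested.

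Of 39 genes of collagen and matrix, 32 were lower over both arms with a median of -0.23, made up of 36 lower under TAC (median -0.50) and 28 higher after sham surgery (median 0.13). Activated fibroblast genes had 19 of 23 lower with medians of -0.39 over both, -0.78 under TAC and 0.08 after sham surgery. Postn, the matricellular protein periostin, had -2.78 under TAC and 0.48 after sham surgery, and Col1a1, a chain of type I collagen, had -0.91 and 0.17 in the same order. The matrix list summed to 6240.6 and 5326 CPM in TAC control mice 2 and 3, while TAC control 1, with 2971 CPM and 3.29 CPM of Postn, lay inside the range of the TAC dantrolene mice (2818 to 3627 CPM, and 1.30 to 4.92 CPM of Postn). Without TAC control 2 the matrix median over both arms was -0.12, and without TAC dantrolene 1 it was -0.15. Of 14 markers of resting fibroblasts 11 were lower over both arms. Under TAC 10 of them were lower (median -0.36), and after sham surgery 8 were higher (median 0.004). Their sums were 2584 to 4253 CPM in dantrolene hearts and 2793 to 6019.7 CPM in control hearts, with no marker at 0 throughout. The part of these cells in the matrix values was not tested. Interferon response genes had 22 of 28 lower with a median of -0.27, but 27 of 28 were lower under TAC (median -0.72) and 20 of 28 higher after sham surgery (median 0.22). Without both control mice numbered 3 the interferon median was 0.01, and without TAC control 3 alone it was -0.06. Oasl2, an interferon-induced gene, had -0.47 ± 0.22 and the smallest p of that list. In each of these lists 0 genes were called, and the difference between arms called 0 genes as well.

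Among metabolic lists, of 37 genes of fatty acid oxidation and its PPAR and PGC1 regulators, 32 were higher with a median of 0.12, and of 35 genes of the TCA cycle and branched-chain catabolism 30 were higher with a median of 0.11. Over all genes 56.5% were higher. After sham surgery alone the counts were 20 of 37 and 12 of 35. Nuclear genes of oxidative phosphorylation had 27 of 49 higher with a median of 0.02, and glycolysis had 17 of 28 higher with a median of 0.05. The arms differed in sign for both, with medians of -0.11 under TAC and 0.09 after sham surgery for oxidative phosphorylation, and 0.24 and -0.24 for glycolysis, and the difference between arms was not tested for the lists. Pfkfb1, which controls glycolytic flux, had 0.58 ± 0.26, the smallest p of the glycolysis list. Immediate early genes, which respond within minutes to stress and handling, had 21 of 23 higher with a median of 0.32, and without TAC dantrolene 2 their median was -0.08. Genes of the response to foreign compounds and of drug transport were split, 19 of 34 higher with a median of 0.04. Of the 15 mitochondrially encoded genes 13 were lower over both arms, from 15 of 15 lower under TAC and 14 of 15 higher after sham surgery.

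Over the 43 lists, which hold 856 tested genes, 0 genes were called. The medians of the arms had the same sign in 11 lists, 9 of them higher and 2 lower, MHC class II and the erythroid genes. In 22 lists the median was negative under TAC and positive after sham surgery, and in 10 it was the other way round.

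**Figure D5:**
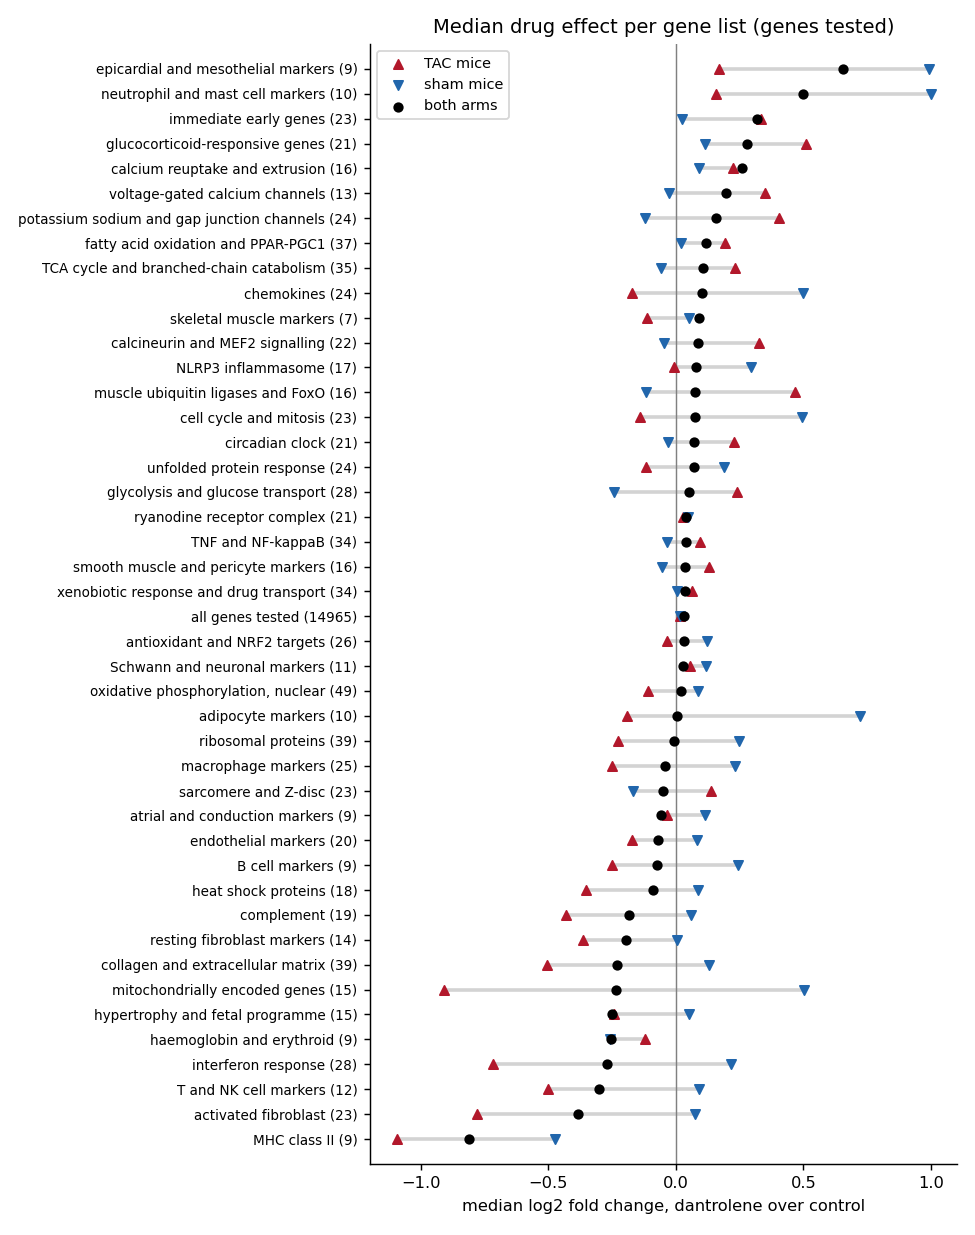
Median log2 fold change of dantrolene over control of each gene list, with the number of genes tested in brackets, over both arms (black), in TAC mice (red, pointing up) and in sham mice (blue, pointing down), joined by a grey line. MHC class II is the lowest over both arms at -0.81, with both arms below 0, and many lists have their arms on opposite sides of 0.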

How the data were processed

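Left ventricles of 12 mice were sequenced as poly(A) RNA in paired reads of 150 nucleotides with a strand-specific kit, per the labels' protocols. Tools named in the submitters' processing notes are edgeR, TopHat2 and bcl2fastq, and the build is GRCm38. How reads were counted, and with which strand setting, is not given in the sources used here, so overlapping and antisense genes, and close paralogs such as those of MHC class II, may share reads. The authors deposited whole read counts per gene, not normalised, and FPKM values, which were used for the levels of the 3 ryanodine receptor genes. No symbol was given for 1 row of counts, and 0 columns were without a sample.

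Samples were grouped by title. Counts were fitted with edgeR 4.0.16 in R 4.3.3 (filterByExpr, minimum count 10 and total 15, TMM scaling, robust quasi-likelihood) with surgery and drug as terms and 9 residual degrees of freedom. Tests were two-sided, with Benjamini-Hochberg adjustment over 14965 genes and a threshold of 0.05. Genes left out held 0.0418% of counts. Values in CPM use the TMM-scaled totals, and log2 CPM for means, principal components and list levels has a prior count of 2. The arms and their difference came from a fit of 4 group means. DESeq2 1.42.0 and limma 3.58.1 were alternatives, with other scalings, filters, designs and omissions of libraries. The test was tested on simulated data. Coordinates are those of GENCODE M21 on GRCm38, matched for 25116 of 25319 genes.

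The comparison and the gene lists were chosen with earlier results of these data known. Genes named are, where nothing passed, the 12 protein-coding genes of at least 1 CPM with the smallest p per direction, 3 other genes per direction, 14 index genes, up to 4 members of a list by p, and up to 6 genes without overlap in both arms. The results of 2 genes that this rule selects are not reported here. Each library is a separate mouse, and per gene the chi-square between libraries of a group was 31.7 to 794, above sampling noise. Same-numbered mice of an arm deviated together from their group means. Their correlations across genes were 0.556, 0.3 and 0.613 under TAC and 0.465, 0.366 and 0.672 in sham. All were over 0.1, so a fit with these pairs as blocks was run as an alternative. The SEs, p-values and intervals given for single genes come from fits without these blocks. Of the pairs with different numbers 3 were also over 0.1, sham dantrolene 1 with control 2 (0.375), sham dantrolene 2 with control 1 (0.305) and TAC dantrolene 3 with control 2 (0.221). The labels do not say what a number marks.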

Additional observations from a re-analysis of the deposited data

How the results depend on the processing

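The count of called genes was 0 in each of 28 alternatives, 12 of which left out 1 mouse. Genes with an unadjusted p under 0.05 numbered 121 as reported, 71 to 276 with 1 mouse left out, 52 without both control mice numbered 3, 73 with at least 1 CPM required in 6 libraries, 478 with no filter, 426 with the first principal component as a covariate, 930 with limma's voom and sample weights (smallest adjusted p 0.595) and 1000 without the 4 libraries apart on that component (smallest adjusted p 0.709). With a replicate block for the 6 pairs of mice of an arm and number, 0 genes were called and 387 had an unadjusted p under 0.05. With a block for the number alone these were 0 and 122. The omissions of both control mice numbered 3, and all alternatives of list medians, were chosen after seeing the data.

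Some log2 fold changes turned. In the sham arm alone Acta1 was 0.085, Nppa 0.074, Myh6 -0.21, Postn 0.49, Col1a1 0.17, Casp1 0.37 and Ryr3 0.12. In the TAC arm alone Ryr1 was -0.041, Nppb -0.31, Myh7 0.041 and Tnf -0.25. Without the 4 libraries apart Ryr3 was 0.048, Nppb -0.30, Tnf -0.36 and Il1b -0.34. Without both control mice numbered 3, Ryr3 was 0.027, Tnf -0.18 and the median log2 fold change of the list interferon response 0.012. Under voom Ryr3 was 0.11 and Il1b -0.13. With 1 mouse left out, Ryr1 ranged from -0.39 to 1.22, Ryr3 from -0.19 to 0.069, Nppb from -0.012 to 0.64, Myh7 from -0.75 to 0.0079, Tnf from -0.18 to 0.45 and the median log2 fold change of the list immediate early genes from -0.0774 to 0.4825. The cause was not tested. Only 3 mice per group and the spread between them limit what was detectable here.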
